A study of Mus musculus with 6 samples.

Results

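The copines are a family of calcium-dependent membrane binding proteins, and their transcripts were followed here in the medial prefrontal cortex of mice on a control diet and on a diet labelled ZnR. The members were every probe set annotated to exactly 1 of 9 gene symbols, Cpne1 to Cpne9. This gave 16 probe sets for 9 genes, of 18193 genes with such a probe set on the array. A probe set is a group of short probes that reads 1 transcript or several. The family was picked with the difference of Cpne9 between the diets already known, so the values of the copines by diet are a description. No p-value is printed for a copine, and counts of copine probe sets past a threshold are given only to describe them.

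All 6 mice were male, 8 to 10 weeks old and of strain 129S1/SvImJ, an inbred line. All had been through fear extinction training, that is, repeated exposure to a feared cue that no longer predicts harm. The medial prefrontal cortex of both hemispheres was taken 2 h later. Mice 1, 5 and 9 were on the control diet and mice 3, 7 and 11 on the ZnR diet, which the labels describe as a zinc diet. No source used here gives the composition of either diet or says whether any mouse received a drug. There was 1 Affymetrix Mouse430_2 array per mouse, and this small number limits the precision of all values. In whole tissue, fewer cells of a type and less RNA per cell cannot be told apart.

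Copines are soluble proteins that carry a pair of C2 domains, which bind phospholipid membranes when calcium rises, followed by an A domain related to that of integrins, which binds other proteins. They can therefore move to membranes during calcium signals, which was not measured here for any member. In neurons the best studied member is Cpne6, also called N-copine, which acts through the GTPase Rac1 on dendritic spines and has been linked to signalling by brain-derived neurotrophic factor. Cpne1 binds the p65 subunit of NF-kB and promotes neurite outgrowth, and Cpne3 binds the receptor ErbB2 and takes part in cell migration.

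Cpne9 and Cpne8 were the copines that lay farthest apart between the diets, in opposite directions, and the bases before their annotated starts are shown to let a reader compare these genes. The sequences are from RefSeq (GRCm38.p6), 250 bases each on the gene's strand, at chr6:113282057-113282306 (plus strand) for Cpne9 and chr15:90679389-90679638 (minus strand) for Cpne8. Capitals mark matches, on either strand, to 6 motifs: the half-site of the cAMP response element (TGACG), the E-box bound by NeuroD factors (CAGATG), the GC box (GGGCGG), the core of the metal response element in its A form (TGCACNC) and G form (TGCGCNC), and the TATA box (TATAAA). No match overlapped another.
Cpne9: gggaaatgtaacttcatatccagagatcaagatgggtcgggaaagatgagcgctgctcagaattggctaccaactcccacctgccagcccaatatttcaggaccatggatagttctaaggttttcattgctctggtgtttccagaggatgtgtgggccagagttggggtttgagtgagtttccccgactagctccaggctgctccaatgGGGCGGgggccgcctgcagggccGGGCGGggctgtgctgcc
Cpne8: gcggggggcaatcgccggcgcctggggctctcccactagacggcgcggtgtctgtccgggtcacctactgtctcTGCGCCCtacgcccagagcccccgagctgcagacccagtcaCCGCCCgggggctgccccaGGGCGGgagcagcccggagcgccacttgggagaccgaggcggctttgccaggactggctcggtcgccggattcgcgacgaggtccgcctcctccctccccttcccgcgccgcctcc
The Cpne9 window held 2 GC boxes, 41 and 18 bases before the start, and no match to the other motifs. The Cpne8 window also held 2 GC boxes, 135 and 116 bases before the start, and 1 metal response element core in the G form, 176 bases before it. Of 32817 windows of this length in the table, 32.7% held a GC box, 12.5% the G form of the metal response element core, 10.4% its A form, 17.7% the cAMP half-site, 14.5% the NeuroD-type E-box and 12.4% the TATA box. The table held windows for 6 of the 9 copines, 7 windows in all. Of these, 5 held a GC box, 4 the G form of the metal response element core and 2 the cAMP half-site, and none held the other motifs. The 4 windows with the G form had 74.4% (Cpne8 and Cpne2), 76.4% (Cpne5) and 59.6% (Cpne4) G and C. The Cpne9 window had 56.4%, the other Cpne4 window 56.8% and the Cpne1 window 54%. The median of all windows was 52.4%, so the shares over all windows are not matched for G and C. A match of letters is a description and does not show binding.

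Values are log2 expression per probe set, and a level is not compared between probe sets, whose probes bind unequally. Probe sets were tested if their log2 value was above 4 on at least 3 of the 6 arrays, which 13 of the 16 copine probe sets and all 9 genes passed. The other 3 read Cpne3 (1.94 to 2.47 over the 6 mice), Cpne4 (2.88 to 3.07) and Cpne7 (3.57 to 3.85). These 3 stayed below 4 in every mouse, while another probe set of the same gene was above it. Where a gene had several tested probe sets, that of highest mean stands for the gene.

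The array controls for 18S ribosomal RNA set apart control mouse 1 and ZnR mouse 3, at 8.44 to 9.09 log2 units against 10.9 to 12.4 in the other 4 mice. The cause was not tested. The larger differences are therefore also given for this pair and for the remaining 4 mice. All 6 measured markers of cortical excitatory neurons passed the level filter. Their mean log2 value was 9.04 to 9.16 in control and 8.04 to 8.24 in ZnR mice. All 10 measured markers of striatal medium spiny neurons passed it too, with means of 10.1 to 10.6 and 10.9 to 11.1. Passing the filter therefore does not show that the tissue was cortex alone.

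Across the family, 6 of the 9 copines were higher on average in ZnR mice and 3 lower, where 57.6% of 11749 genes tested were higher. The median difference over the 9 was 0.19 log2 units, against 0.03 over all genes tested. Of the 13 tested probe sets, 1 passed the threshold of limma's test over all probe sets (Benjamini-Hochberg adjusted p under 0.05), that of Cpne9, and 12 did not. Of all probe sets, 1.47% passed. The 3 ZnR and 3 control mice did not overlap in 5 of the 13 probe sets, which read Cpne2, Cpne8 and Cpne9, where 23.7% of all probe sets had no overlap. Counted by gene, this was 3 of 9, where 27.7% of all genes had no overlap. Since the family was picked on this contrast, nothing is read from these counts.

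**Figure D1:**
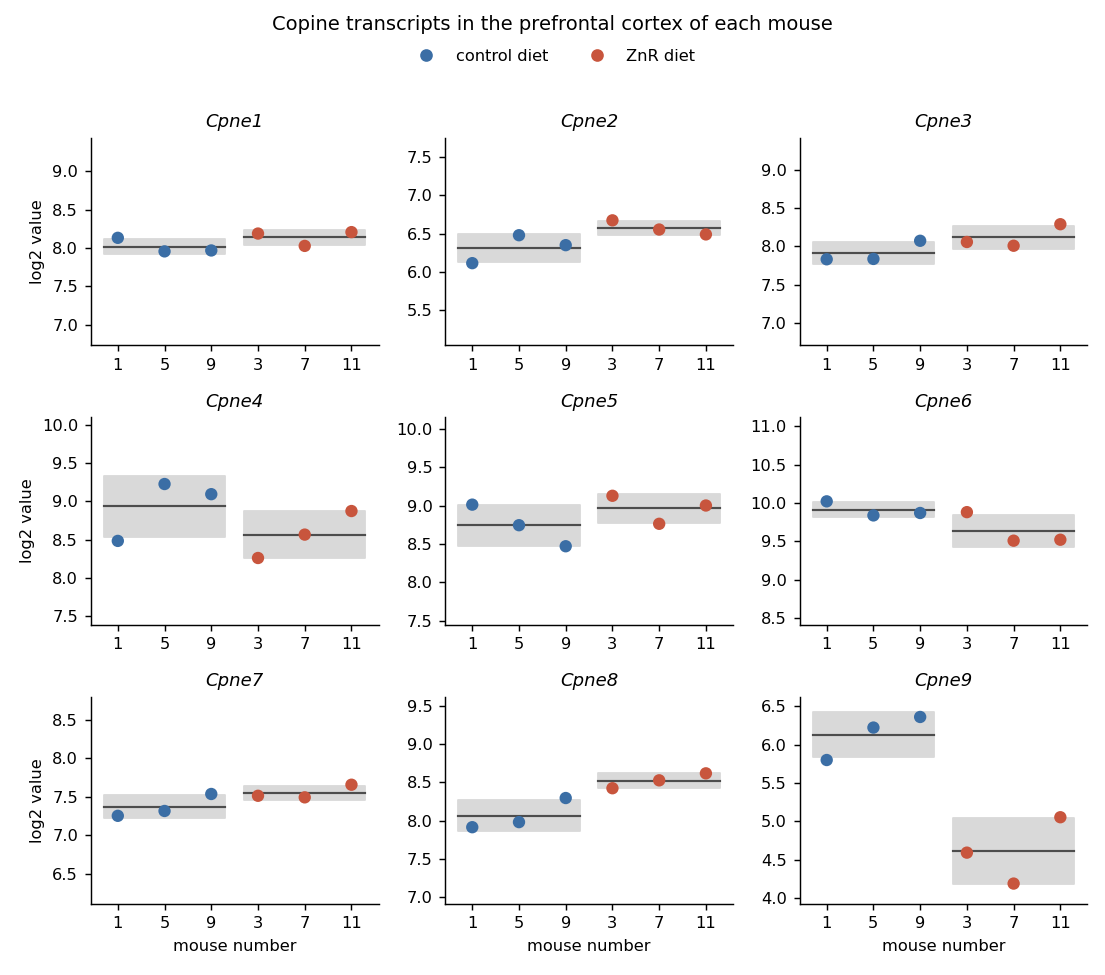
Log2 value of each copine in each mouse (points; control blue, ZnR red), with the mean (line) and SD (grey band) of each diet, n = 3. Every panel spans the same number of log2 units around its own level; Cpne9 lies between 5.80 and 6.36 in control and between 4.19 and 5.05 in ZnR mice, and the diets also stand apart for Cpne2 and Cpne8, while those of the other 6 copines overlap.

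Cpne9 was lower in all 3 ZnR mice. Its log2 value was 5.80, 6.22 and 6.36 in control mice 1, 5 and 9, and 4.59, 4.19 and 5.05 in ZnR mice 3, 7 and 11. The highest ZnR mouse lay 0.75 log2 units below the lowest control mouse. The mean was 6.13 ± 0.29 in control and 4.61 ± 0.43 in ZnR mice (SD, n = 3 per diet), a difference of -1.52 ± 0.23 (moderated SE) or 2.86-fold. This was the 5th lowest difference among 11749 genes. In the ZnR mice the probe set was close to the level filter of 4.

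The difference of Cpne9 was -1.21 between mice 3 and 1 of the low-18S pair and -1.67 in the remaining 4 mice. It was between -1.74 (without ZnR mouse 11) and -1.30 (without ZnR mouse 7) when 1 mouse was left out, and in none of these 6 fits did the probe set pass the threshold. Only 1 probe set reads this gene, so no other probe set bears on the value.

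The same difference can be set against the family within each array, which restates it and adds no support. The log2 value of Cpne9 minus the mean of the other 8 copines was -2.30, -1.95 and -1.85 in control mice 1, 5 and 9, and -3.68, -3.99 and -3.28 in ZnR mice 3, 7 and 11. Each value holds probe sets of unequal sensitivity, so only its change between mice can be read. That gap changed by -1.62 log2 units between the diets, and by -1.61 when all tested probe sets of a gene were averaged.

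Cpne8 was the copine with the largest difference in the other direction, and all 3 of its probe sets were higher in every ZnR mouse than in any control mouse. The probe set of highest mean read 7.92, 7.98 and 8.30 in control mice 1, 5 and 9, and 8.42, 8.53 and 8.62 in ZnR mice 3, 7 and 11. Control mouse 9 came closest to the ZnR mice, 0.13 log2 units below the lowest of them. The mean was 8.06 ± 0.20 in control and 8.52 ± 0.10 in ZnR mice (SD, n = 3 per diet), a difference of 0.46 ± 0.12 (moderated SE) or 1.37-fold.

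The second Cpne8 probe set read 6.48, 6.66 and 6.98 in control and 7.27, 7.37 and 7.33 in ZnR mice. Its difference was 0.62 ± 0.13 (moderated SE). The third read 6.39, 6.39 and 6.47 in control and 6.75, 6.83 and 6.92 in ZnR mice, a difference of 0.42 ± 0.09. The annotation gives these last probe sets the same source sequence, so they are not independent readings, and the third has the array's _s_at suffix, which marks probes shared by more than 1 transcript. The difference by the probe set of highest mean was 0.51 in the low-18S pair and 0.43 in the remaining 4 mice. None of the 3 passed the threshold in the fit described here; a Cpne8 probe set passed when the low-18S pair was a block, which raised the count of copine probe sets past the threshold from 1 to 2. Other settings that did so are given in the closing section.

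**Figure D2:**
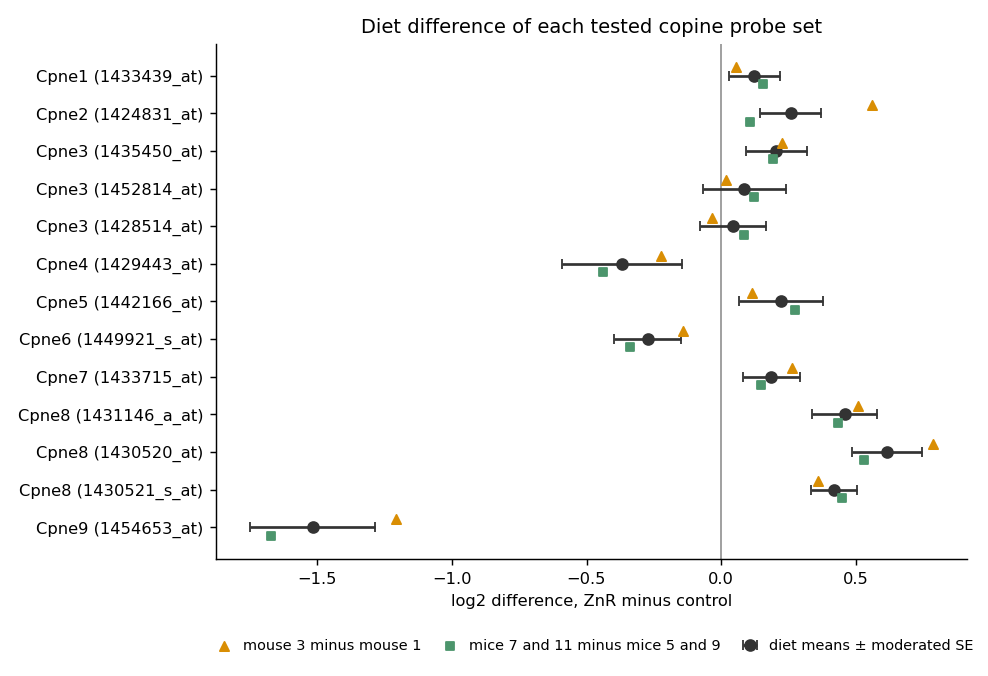
Log2 difference, ZnR minus control, of each of the 13 tested copine probe sets: black points are the difference of the diet means with the moderated SE, triangles the difference in the low-18S pair, and squares that in the remaining 4 mice. Cpne9 stands at -1.52, the 3 Cpne8 probe sets between 0.42 and 0.62, and the others between -0.37 and 0.26.

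Cpne6, the copine tied to dendritic spines, was lower on average and its mice overlapped. It read 10.02, 9.84 and 9.87 in control mice 1, 5 and 9, and 9.88, 9.51 and 9.52 in ZnR mice 3, 7 and 11. ZnR mouse 3 lay among the control mice, and ZnR mice 7 and 11 below all of them. The difference was -0.27 ± 0.12 (moderated SE), with -0.14 in the low-18S pair and -0.34 in the remaining 4 mice. Its only probe set also has the _s_at suffix, so signal from a related transcript is not separated.

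Cpne4 was lower on average, and varied within each diet about as much as it differed between them. It read 8.48, 9.23 and 9.09 in control mice 1, 5 and 9, and 8.26, 8.57 and 8.87 in ZnR mice 3, 7 and 11. Control mouse 1 lay below ZnR mice 7 and 11, so the diets overlapped. The difference of -0.37 ± 0.22 (moderated SE) was smaller than the SD of 0.40 among control mice. The low-18S pair gave -0.22 and the remaining 4 mice -0.44. Leaving out control mouse 1 gave -0.59, and leaving out ZnR mouse 3 gave -0.21.

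Cpne2 was higher in ZnR mice by a margin that rested in part on control mouse 1. It read 6.11, 6.48 and 6.35 in control mice 1, 5 and 9, and 6.67, 6.55 and 6.49 in ZnR mice 3, 7 and 11. The diets were separated by 0.01 log2 units. The difference was 0.26 ± 0.11 (moderated SE) over all mice, 0.56 in the low-18S pair and 0.11 in the remaining 4 mice. Without control mouse 1 it was 0.16.

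Cpne5 read 9.01, 8.74 and 8.47 in control mice 1, 5 and 9, and 9.13, 8.76 and 9.0 in ZnR mice 3, 7 and 11. Control mouse 1 was above ZnR mouse 7, and just above ZnR mouse 11, so the diets overlapped. The difference was 0.22 ± 0.16 (moderated SE). It was 0.36 without control mouse 1 and 0.09 without control mouse 9, the widest relative range among the copines when 1 mouse was left out.

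Cpne7 read 7.25, 7.32 and 7.54 in control and 7.51, 7.49 and 7.66 in ZnR mice, in the same order of mice. Its difference was 0.19 ± 0.10 (moderated SE), and control mouse 9 was above ZnR mice 3 and 7. Cpne3, the ErbB2 binding member, read 7.83, 7.84 and 8.07 in control and 8.06, 8.01 and 8.29 in ZnR mice, a difference of 0.20 ± 0.11. Its other tested probe sets measured 0.09 ± 0.15 and 0.04 ± 0.12, so the 3 probe sets of Cpne3 ran from 0.04 to 0.20. Cpne1, which binds p65, read 8.13, 7.96 and 7.97 in control and 8.19, 8.03 and 8.21 in ZnR mice, a difference of 0.12 ± 0.09, and its mice overlapped. In the RefSeq gene table of GRCm38.p6, used for names only, Cpne1 overlaps Rbm12, and the values do not show which transcript a probe set reads.

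Some copines varied together from mouse to mouse and others in opposite ways. After each diet's mean was taken out, Cpne3 and Cpne7 had a Pearson correlation of 0.95 over the 6 arrays, Cpne7 and Cpne8 had 0.95 and Cpne3 and Cpne8 had 0.84. Cpne4 and Cpne6 had -0.80 and Cpne5 and Cpne8 -0.79. Cpne9 had 0.84 with Cpne3, 0.80 with Cpne7 and 0.58 with Cpne8, but -0.22 with Cpne6. Cpne4 had 0.54 to 0.68 with Cpne3, Cpne7, Cpne8 and Cpne9. These 6 points share their arrays and their normalization, with 3 per diet, so the correlations are a description.

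The genes most like Cpne9 and Cpne8 were those of highest Pearson correlation across the 6 arrays. For Cpne9 they were Synj2, which encodes an inositol phosphatase (0.99), Cables2 (0.99), the zinc finger gene Hivep2 (0.99), Klhl40 (0.98) and the kinesin gene Kif5c (0.98). Each had a smaller difference than Cpne9: Klhl40 measured -0.75, Synj2 -0.48, Hivep2 -0.33, Cables2 -0.19 and Kif5c -0.12 log2 units. Klhl40 passed the level filter through its control mice alone (4.20 to 4.38), since its ZnR mice were at 3.45 to 3.77. For Cpne8 they were Thsd7a, the selenoprotein gene Selenom and the Notch ligand gene Jag1, followed by the translation factor gene Eif4a1 and the growth factor receptor gene Fgfr1, with correlations from 0.99 to 0.998. Their differences ran from 0.12 for Eif4a1 to 0.54 for Jag1. With diet means taken out, the correlations were 0.87 to 0.97 for the genes like Cpne9 and 0.97 to 0.998 for those like Cpne8. Among 11749 genes and 6 arrays, the highest correlations are close to 1 by selection.

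**Figure D3:**
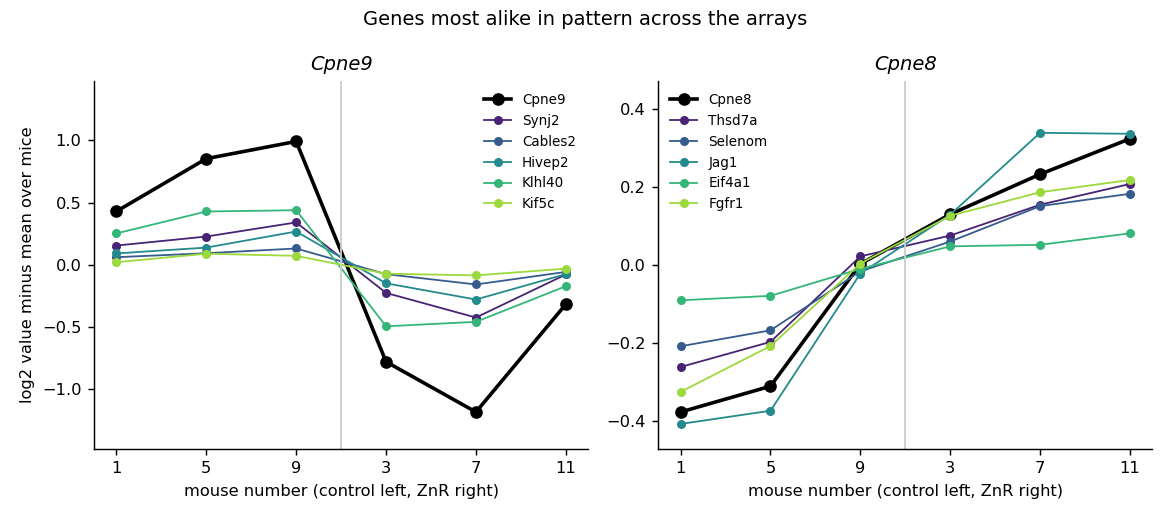
Log2 value of Cpne9 (left, black) and Cpne8 (right, black) and of the 5 genes most like each, minus the gene's mean over the 6 mice, against mouse number; lines only join the points of a gene. The genes like Cpne9 are lower in ZnR mice by less than Cpne9 itself, and those like Cpne8 are higher.

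Other proteins carry C2 domains too, among them the synaptotagmins, some but not all of which sense calcium in vesicle release. Of 51 such genes listed, 46 had a single-gene probe set and 39 were tested. None of them rose, 3 fell and 36 did not pass, which is 7.69% called, where 1.92% of all genes tested passed, 0.655% as higher and 1.27% as lower. On average 31 were lower and 8 higher, and the median was -0.10 log2 units against 0.03 over all genes. The synaptotagmin gene Syt13 fell from 10.52 ± 0.04 to 9.88 ± 0.03 (SD, n = 3 per diet; difference -0.63 ± 0.08 SE, limma adjusted p = 0.0212), as did its second probe set (difference -0.82 ± 0.12 SE, limma adjusted p = 0.0279).

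The vesicle priming gene Unc13b fell from 7.03 ± 0.08 to 6.34 ± 0.10 (difference -0.69 ± 0.09 SE, limma adjusted p = 0.0238). Sytl2, a synaptotagmin-like gene of vesicle transport, fell from 8.90 ± 0.03 to 8.11 ± 0.21 (difference -0.79 ± 0.12 SE, limma adjusted p = 0.03). For Rph3a, which encodes the vesicle protein rabphilin, the probe set of highest mean measured -0.52 ± 0.14 (limma adjusted p = 0.122), while its second probe set fell (-1.16 ± 0.10 SE, limma adjusted p = 0.00728). Rims1, an active zone gene, measured -0.48 ± 0.09 (limma adjusted p = 0.0513) and a second probe set of it fell (-0.59 ± 0.09 SE, limma adjusted p = 0.0292). Rph3a and Rims1 were named after their values were seen. Unc13c, a vesicle priming gene likewise named after its values were seen, was higher in every ZnR mouse (9.89 to 10.22) than in any control mouse (9.43 to 9.59), with a difference of 0.54 ± 0.11 SE (limma adjusted p = 0.0595). It passed as higher when the low-18S pair was a block, and with 3 other settings given in the closing section. The count of 3 was 1 (Syt13) without control mouse 1 and 0 without control mouse 5, control mouse 9, ZnR mouse 3, ZnR mouse 7 or ZnR mouse 11.

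Annexins bind phospholipids in the presence of calcium by another fold. Of 12 listed, 7 were tested and none passed limma's threshold. The median difference was 0.06 log2 units. Anxa2 read 5.60, 6.33 and 6.43 in control and 6.62, 6.88 and 7.0 in ZnR mice, with no overlap and a difference of 0.72 ± 0.22 SE (limma adjusted p = 0.16). Anxa1 measured 0.40 ± 0.17 SE and Anxa3 0.28 ± 0.12 SE. When the low-18S pair was a block, Anxa2 passed.

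Among genes reported to bind copines or to act on the same route, 15 of 18 were tested. Of these 1 fell, 14 did not pass and none rose, 6.67% called against 1.92% of all genes tested, and the median was -0.07 log2 units. Bdnf, which encodes brain-derived neurotrophic factor, read 9.0, 9.16 and 9.24 in control mice 1, 5 and 9, and 8.02, 7.95 and 7.85 in ZnR mice 3, 7 and 11. It fell 2.29-fold (-1.19 ± 0.10 SE, limma adjusted p = 0.00624) and did not pass without control mouse 5. The cofilin kinase gene Limk1 measured -0.28 ± 0.12 SE and Cdc42bpb, which encodes a kinase bound by Cdc42, -0.20 ± 0.10 SE. The fall of Bdnf was known when this list was written, so it is not independent evidence of a direction.

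**Figure D4:**
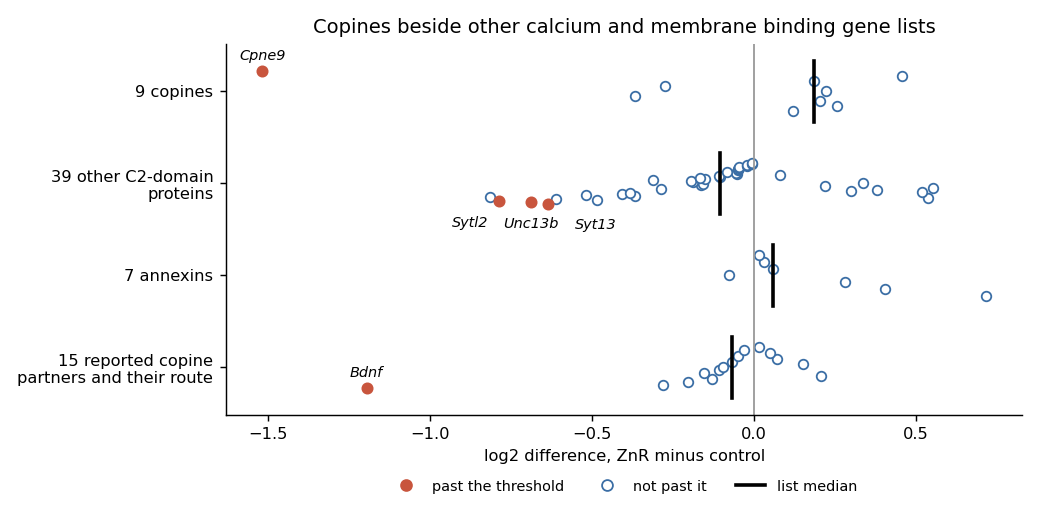
Log2 difference, ZnR minus control, of the 9 copines and of the tested genes of 3 related lists (1 point per gene); filled points passed limma's threshold over all probe sets, open points did not, and bars mark each list's median. The medians lie between -0.10 and 0.19, and Cpne9 at -1.52 and Bdnf at -1.19 stand farthest from 0.

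Markers of several cell types moved with the diet on the same arrays as Cpne9 and Cpne8. The counts below stand against all genes tested, of which 1.92% passed the threshold and 57.6% were higher on average. Summed over their measured markers and put on the log2 scale, cortical excitatory neuron markers (6 of 6 lower, 5 past the threshold) ranged from 12.7 to 12.8 in control and from 11.5 to 11.8 in ZnR mice. Upper layer markers (6 of 7 lower, 2 past the threshold) ranged from 13.60 to 13.64 and from 13.14 to 13.18. Deep layer markers (4 of 7 lower, none past the threshold) overlapped between the diets in this sum, in which Bcl11b (12.4 in control) weighed most. Lower on average were Sulf1 (-0.57), Rprm (-0.44), Ntsr1 (-0.34) and Fezf2 (-0.22). Higher were Foxp2 (0.65), Bcl11b (0.08) and Tle4 (0.06), so the overlap of the sum does not show that each marker was unchanged.

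Striatal medium spiny neuron markers (10 of 10 higher, 3 past the threshold) ranged from 14.2 to 14.6 in control and from 14.8 to 15.02 in ZnR mice. Choroid plexus and ependymal markers (8 of 8 measured higher, 2 past the threshold) ranged from 7.38 to 8.32 and from 9.11 to 9.30, and Folr1 of that list did not pass the level filter. Astrocyte markers (9 of 9 higher, 1 past the threshold) ranged from 15.03 to 15.18 and from 15.20 to 15.24. Interneuron markers (4 of 8 higher, 1 past the threshold) overlapped between the diets in their sum, in which Gad1 (13.5 in control) weighed most. Vip was lower on average (9.79 in control and 8.79 in ZnR mice), as were Pvalb (-0.70), Npy (-0.44) and Sst (-0.13). Slc32a1 (0.56), Gad2 (0.39), Lhx6 (0.36) and Gad1 (0.12) were higher, so this overlap does not show that each marker was unchanged. Leptomeningeal markers (4 of 4 measured higher, none past the threshold, with Col1a1, Lum and Slc6a13 under the filter) overlapped between the diets too. So did oligodendrocyte markers (8 of 8 higher), endothelial markers (6 of 6 higher) and those of microglia (6 of 7 lower). Oligodendrocyte precursor markers (6 of 6 higher, none past the threshold) ranged from 11.6 to 11.7 in control and from 11.8 to 12.2 in ZnR mice. The part of these shifts in the values of Cpne9, Cpne8 and the other copines was not tested.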

How the data were processed

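Total RNA (500 ng per mouse) was biotin-labelled with a 3′ IVT kit for Mouse430_2 arrays of Affymetrix, per the labels' protocols. The authors deposited log2 values per probe set, 1 column per mouse; the submitters' processing notes name GCRMA 2.28.0 and R 2.15.1. GCRMA, which corrects background by probe sequence and equalizes quantiles between arrays, hides any change of total RNA. No source used here names a genome build. Of 45101 probe sets, 64 array controls were left out, and 25381 (56.4%) exceeded a log2 value of 4 on at least 3 of 6 arrays. Gene names came from the platform annotation, which gave 1 symbol for 34945 probe sets. The diets were compared with limma 3.58.1 (R 4.3.3; lmFit and eBayes, 2-sided, Benjamini-Hochberg over all probe sets kept, threshold 0.05), tested on simulated data first. Robust estimates used statmod 1.5.0. Tables and plots used Python 3.11.15, pandas 2.3.3 and matplotlib 3.10.9. A fold is 2 raised to the size of the log2 difference. The named genes were all copines, every list gene past the threshold with the 3 of smallest p per list, and the 5 genes most correlated with the copines of largest difference in either direction. Members, lists and alternatives were chosen with earlier results of these data known.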

Additional observations from a re-analysis of the deposited data

How the results depend on the processing

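The direction of each copine's difference, by the probe set standing for the gene, was the same in every alternative that tested it. Those that could change it for some copines were renewed quantile normalization, array weights, the low-18S pair left out and each mouse left out. For Cpne2, Cpne8 and Cpne9, whose diets did not overlap, weighting arrays or leaving mice out could not reverse it. Averaging could not reverse it either, since all tested probe sets of a gene differed in the same direction. Filters, variance priors and the low-18S pair as a block leave a difference of diet means unchanged, so they could not alter its direction. Of the 2 other Cpne3 probe sets tested, 1 measured -0.03 in the low-18S pair against 0.04 over all mice. Counts past the threshold were less stable. With 1 mouse left out, copine probe sets past it numbered 0 in every case. All probe sets past it numbered 1 to 109, other C2-domain genes 0 to 1 and reported partners 0 to 1. Without the low-18S pair these counts were 0, 1, 0 and 0. A trend in the variance prior gave 2 copine probe sets, 916 of all probe sets and 9 C2-domain genes. Array weights gave 4, 2003 and 11. The weight was 6.57 for control mouse 5 and 0.51 to 0.99 for the other mice. In that fit the control mean therefore rested mostly on mouse 5. The low-18S block gave 2 copine probe sets and 1 annexin. With the trend, array weights or this block, the copine probe sets past the threshold read Cpne8 and Cpne9 alone. Unc13c passed as higher with that block, the trend, array weights and the filter at 6. A filter at 6 gave 6 C2-domain genes; there Cpne9 was not tested and a Cpne8 probe set passed. Why these settings differ was not tested. Leaving mice out leaves fewer samples in the fit. No paired analysis was possible because the diets share no mouse number and no label ties a control mouse to a ZnR mouse; the low-18S block groups arrays by a measured control signal.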
